A study of Solanum lycopersicum with 9 samples.

Results

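The genes described here are the tonoplast aquaporins (TIPs) of the TIP1 and TIP2 classes in leaves of tomato (Solanum lycopersicum, processing cultivar M82, labelled WT in every library). They were chosen by identifier from a list of 7, of which 5 are among the 23195 genes of the count table. These are Solyc06g074820.3, Solyc03g120470.3, Solyc12g044330.2, Solyc06g075650.3 and Solyc06g060760.3, and all 5 passed the filter on low counts. Solyc10g083880 and Solyc06g066560 were not analysed here. The table gives no gene names, and 0 of its identifiers were found in the RefSeq gene table of assembly SLM_r2.1, so the class comes from the list and no single member is called a TIP1 or a TIP2. In the identifiers of this species the digits before the letter g give the chromosome, which is 6 for 3 of the 5 members, 3 for Solyc03g120470.3 and 12 for Solyc12g044330.2.

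Aquaporins are channel proteins with several membrane-spanning helices that let water cross a membrane along its osmotic gradient. TIPs sit mainly in the tonoplast, the membrane around the large central vacuole, and some also pass small neutral solutes such as urea or hydrogen peroxide. In leaf cells they allow water to move quickly between vacuole and cytosol, and TIP1 and TIP2 are the classes usually found in vegetative tissue.

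Messenger RNA was sequenced from 3 groups of 3 biological replicates. Control plants received neither treatment. In the partial defoliation group all leaves but the measured one were removed close to the stem, and in the partial shading group foil of aluminium covered every leaf but the youngest one that had fully expanded. Both treatments were applied 1 week after the first flowers opened, at the reproductive stage, and RNA came from the remaining leaf or a matching control leaf. The labels of the 6 treated libraries carry the number 48 with no unit and those of the controls do not, so what it marks and the treatments cannot be told apart. Leaf mesophyll is the labelled cell type, although the protocol speaks only of RNA from leaves. Without gene names the tissue label was not checked against markers.

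Total counts lay between 17617138 and 31012772 per library, the lowest being shading replicate 3, which also held 1657 genes at 0 against 334 to 711 elsewhere. The members were read with 80 to 18670 counts per library, far above the 3 counts taken as the detection floor. Levels are CPM, counts divided by library size after scaling by the TMM method. They are not divided by gene length, so they are compared between libraries and not between genes. In bulk RNA, fewer cells of a type and less RNA per cell cannot be told apart. A difference is called where the adjusted p (edgeR quasi-likelihood test, Benjamini-Hochberg over 20480 tested genes) was below 0.05.

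Transcripts of 3 of the 5 TIPs were higher than control in the remaining leaf after both treatments, and no member was lower. Over all tested genes 18.9% were higher and 15.4% lower after defoliation, and 16% and 14.2% under shading. Solyc06g074820.3 rose 2.61-fold after defoliation and 3.16-fold under shading, and Solyc03g120470.3 rose 2.81-fold and 1.80-fold. Solyc12g044330.2 rose 1.58-fold and 2.39-fold, although its call after defoliation was lost without any 1 of 6 libraries. The 2 others, Solyc06g075650.3 and Solyc06g060760.3, stood between 1.76-fold and 1.91-fold above control in the 2 treatments and did not pass the test.

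**Figure D1:**
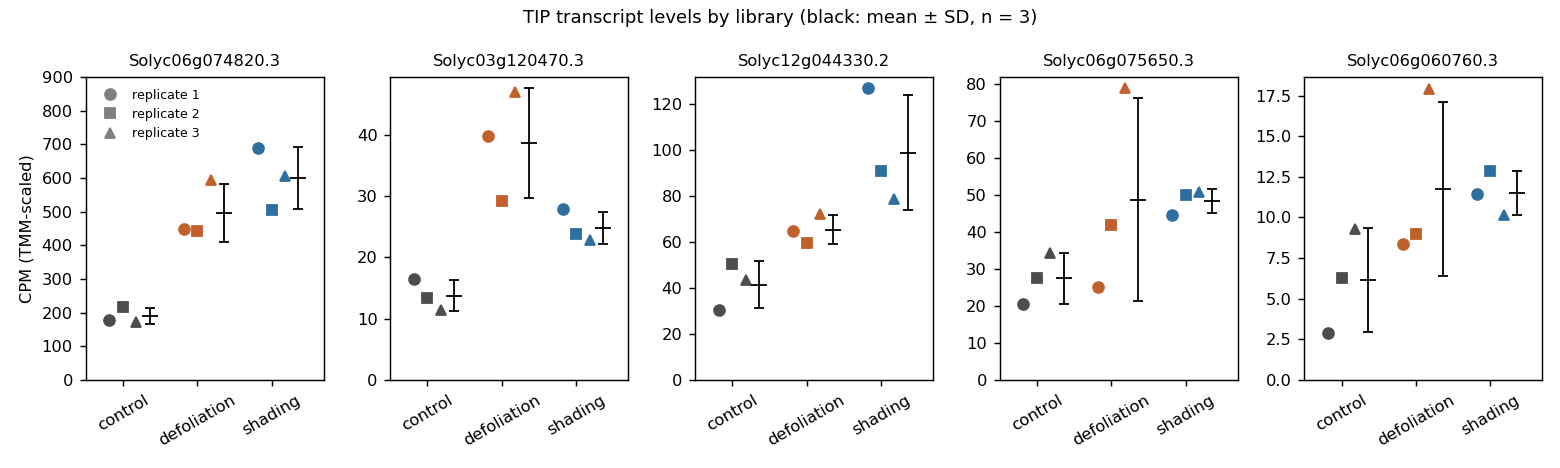
Transcript level of each TIP (CPM after TMM scaling, each panel with its own axis from 0) in the 9 libraries, with group colour, replicate shape and the mean ± SD (n = 3) in black. All 6 treated libraries of Solyc06g074820.3, from 443 to 689 CPM, lie above its controls, of which the highest is at 218 CPM.

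Solyc06g074820.3 had levels of 179, 218 and 173 CPM in control replicates 1, 2 and 3. Defoliation replicates 1 to 3 reached 448, 443 and 594 CPM, and shading replicates 1 to 3 reached 689, 505 and 606 CPM. Every treated library lay above every control, while the treated groups overlapped each other. Group means were 190 ± 24.2, 495 ± 85.7 and 600 ± 91.9 CPM (SD, n = 3). The log2 fold change against control was 1.38 ± 0.17 after defoliation (SE, edgeR adjusted p = 0.00056) and 1.66 ± 0.17 under shading (SE, edgeR adjusted p = 0.000424).

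Among all tested genes, 6.73% had a larger log2 fold change than Solyc06g074820.3 after defoliation and 2.92% under shading. Leaving out shading replicate 3, the shallowest library, left its shading value at 1.66 (edgeR adjusted p = 0.00202).

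In control replicates 1 to 3, Solyc03g120470.3 had levels of 16.4, 13.3 and 11.5 CPM. After defoliation its levels were 39.8, 29.1 and 46.9 CPM, and under shading 27.8, 23.8 and 22.7 CPM. The 3 groups did not overlap, with defoliation highest, shading between and control lowest. Means were 13.7 ± 2.51, 38.6 ± 8.93 and 24.8 ± 2.67 CPM (SD, n = 3) for control, defoliation and shading. Its log2 fold change against control was 1.49 ± 0.19 after defoliation (SE, edgeR adjusted p = 0.000618). Under shading it was 0.85 ± 0.19 (SE, edgeR adjusted p = 0.00893).

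Solyc12g044330.2 showed the other order of the treatments in CPM. Between the treatments neither gene was called (edgeR adjusted p = 0.152 for Solyc03g120470.3 and 0.207 for Solyc12g044330.2). Control replicates 1 to 3 had 30.5, 50.3 and 43.7 CPM of Solyc12g044330.2. Its levels were 64.8, 59.5 and 72.1 CPM after defoliation and 127, 91.1 and 78.7 CPM under shading. Again the 3 groups did not overlap, but here shading was highest and defoliation lay between. The share of tested genes with all 3 groups apart was not computed, and shares for each pair of groups are given below. Means were 41.5 ± 10.1, 65.5 ± 6.35 and 99.0 ± 25.1 CPM (SD, n = 3). The shading difference was the clearer one, with a log2 fold change of 1.25 ± 0.22 (SE, edgeR adjusted p = 0.0025).

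After defoliation the log2 fold change of Solyc12g044330.2 was 0.66 ± 0.21 (SE, edgeR adjusted p = 0.0374). This call was lost without control replicate 1 (0.48) or 3 (0.70), without defoliation replicate 1 (0.67), 2 (0.72) or 3 (0.58), and without shading replicate 2 (0.66). Over its 18 alternatives the edgeR, DESeq2 or limma adjusted p ranged from 0.0147 to 0.115, and 11 of the 18 passed.

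Solyc06g075650.3 varied most after defoliation. Control leaves held 20.6, 27.5 and 34.3 CPM of it, against 25.3, 42.0 and 79.0 CPM after defoliation and 44.7, 49.9 and 50.8 CPM under shading. The defoliation libraries began within the control range and reached beyond it, with a coefficient of variation of 56.4%, while all 3 shading libraries lay above all controls and had a coefficient of variation of 6.74%. The fold against control was 1.78 after defoliation (95% interval 1.01 to 3.11, not adjusted for the number of genes, edgeR adjusted p = 0.104). Under shading it was 1.76 (95% interval 1.01 to 3.09, edgeR adjusted p = 0.117). The fit estimates the spread over all 3 groups together, so the defoliation libraries also enter this shading interval and its p.

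Single libraries set the defoliation value of Solyc06g075650.3. Its log2 fold change was 0.83 with all libraries, 1.14 without defoliation replicate 1 (edgeR adjusted p = 0.0152) and 0.29 without defoliation replicate 3 (edgeR adjusted p = 0.42). Its shading value passed without defoliation replicate 1 (0.82, edgeR adjusted p = 0.0378) or 3 (0.82, edgeR adjusted p = 0.0209), and with only control and shading libraries in the fit (0.83, edgeR adjusted p = 0.0115). DESeq2 called Solyc06g075650.3 in both comparisons with control, with log2 fold changes of 0.83 after defoliation (DESeq2 adjusted p = 0.0457) and 0.83 under shading (DESeq2 adjusted p = 0.0468).

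Solyc06g060760.3, the member with the fewest counts, was read at 2.88, 6.30 and 9.31 CPM in control leaves. Its levels were 8.36, 9.0 and 17.9 CPM after defoliation and 11.5, 12.8 and 10.1 CPM under shading. Controls differed more than 3-fold among themselves, control replicate 3 lay above defoliation replicates 1 and 2, and the shading libraries lay above all controls. The fold was 1.91 after defoliation (95% interval 1.01 to 3.61, edgeR adjusted p = 0.108) and 1.86 under shading (95% interval 0.98 to 3.54, edgeR adjusted p = 0.129). Without control replicate 3 the log2 fold changes were 1.36 and 1.33 and passed (edgeR adjusted p = 0.0361 and 0.0458). Without control replicate 1 they were 0.59 and 0.56 and did not, and without defoliation replicate 3 the first was 0.50.

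**Figure D2:**
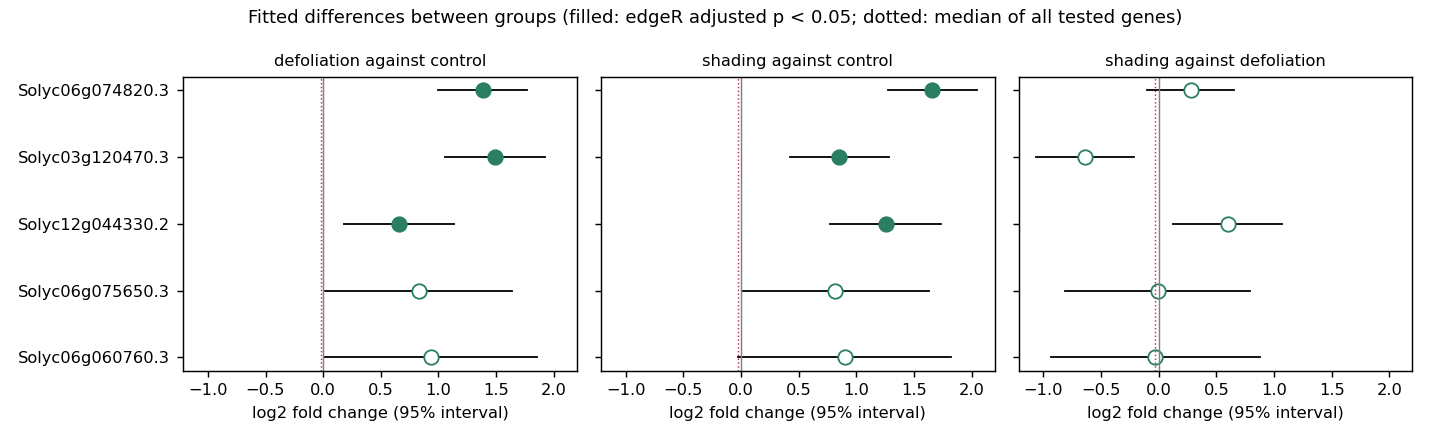
Fitted log2 fold changes of the 5 TIPs with 95% intervals in the 3 comparisons, filled where the edgeR adjusted p was below 0.05, with a dotted line at the median of all tested genes. In both comparisons with control all 5 points lie to the right of 0 and 3 are filled, and none is filled in the comparison of the treatments.

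Setting defoliated plants against controls asks how the transcripts of the last leaf differ once the other leaves are gone. Beside the 3 of 5 members called, the median log2 fold change was 0.93 over the members and -0.02 over all tested genes. With 5 members the median is the value of a single gene, here Solyc06g060760.3, which was not called. The members called and at least 2-fold higher were Solyc06g074820.3 and Solyc03g120470.3, and 9.6% of all tested genes were so. The 3 called members were also those whose defoliation libraries all lay above all controls, which held for 26.4% of tested genes, with 25.5% lower in this way.

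Setting shaded plants against controls asks the same with the other leaves dark but attached. Beside the 3 of 5 members called here, the median log2 fold change was 0.90 over the members and -0.02 over all tested genes. That median is again the value of Solyc06g060760.3, which was not called. For all 5 members the shading libraries lay above all controls, which held for 23.1% of tested genes, with 23.2% lower in this way. Called and at least 2-fold higher were Solyc06g074820.3 and Solyc12g044330.2, as were 7.46% of tested genes. Both comparisons use the same 3 control libraries, so their values for a member are not independent. TMM scaling factors were 1.03 to 1.09 in control and defoliation libraries and 0.879 to 0.953 in shading libraries, and their part in the shading values was not tested beyond the other scalings, under which the 3 calls in each comparison with control held.

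Shading was then compared directly with defoliation, to ask whether darkened leaves leave other levels behind than removed ones. The edgeR test called 0 of the 5 members. Its calls over all tested genes were also few, with 0.00977% higher and 0.00488% lower. At an unadjusted p below 0.05 it found 2 members, beside 3407 of all 20480 tested genes. DESeq2 called 0 members too, while calling 576 genes higher and 438 lower of the 19516 to which it gave an adjusted p, and limma-voom called 0 members. Solyc03g120470.3 was 0.64-fold under shading relative to defoliation (95% interval 0.48 to 0.86, edgeR adjusted p = 0.152), and its shading libraries lay below all defoliation libraries, as 11.4% of tested genes did. Solyc12g044330.2 was 1.51-fold (95% interval 1.09 to 2.10, edgeR adjusted p = 0.207), with its shading libraries above all defoliation libraries, as 10.4% of tested genes were.

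The remaining members had wider or more central intervals for shading relative to defoliation. Solyc06g074820.3 was 1.21-fold (95% interval 0.93 to 1.57, edgeR adjusted p = 0.432). Solyc06g075650.3 was 0.99-fold (95% interval 0.57 to 1.73, edgeR adjusted p = 0.994) and Solyc06g060760.3 was 0.98-fold (95% interval 0.52 to 1.83, edgeR adjusted p = 0.979). These intervals do not show equal levels, since for the last member they still hold every ratio from 0.52 to 1.83.

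The ratio of 2 members within a library does not depend on the scaling. The log2 ratio of Solyc03g120470.3 to Solyc12g044330.2 was -0.70, -1.03 and -0.62 after defoliation but -2.19, -1.94 and -1.79 under shading. Control libraries stood at -0.89, -1.92 and -1.93. The treated groups did not overlap in this ratio. That was fixed by the CPM values already given, in which both genes separate the treated groups in opposite orders. Control replicate 1 lay among the defoliation values while the other controls lay among the shading values. This pair was picked after its values were seen, so the ratio is a description.

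**Figure D3:**
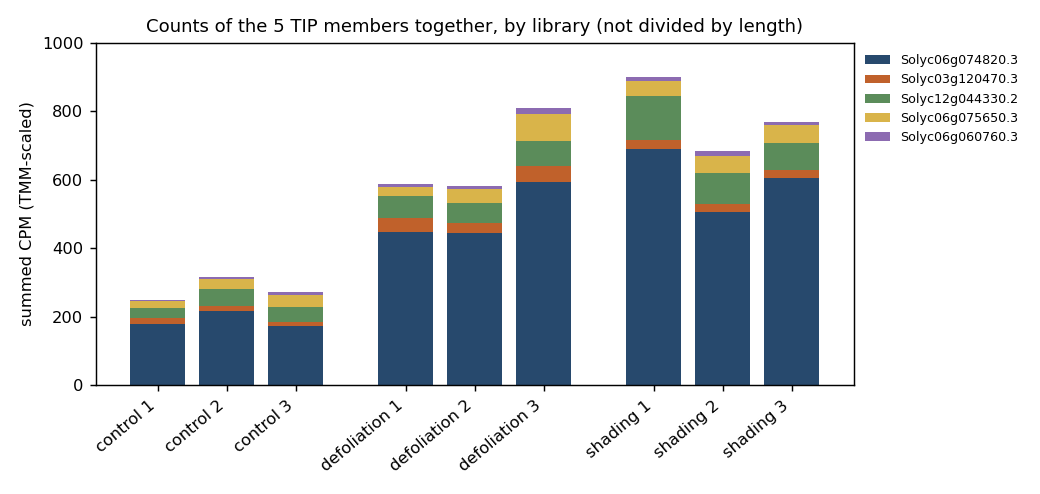
Summed CPM of the 5 TIPs in each library, stacked by member, on an axis from 0. The 6 treated libraries stand between 583 and 900 CPM and the 3 controls between 249 and 315 CPM, with Solyc06g074820.3 as the tallest segment in each.

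Added together, TIP transcripts made up 249, 315 and 272 CPM of the control leaves, 587, 583 and 810 CPM after defoliation and 900, 683 and 769 CPM under shading. The means, 279 ± 33.5, 660 ± 130 and 784 ± 109 CPM (SD, n = 3), correspond to 2.37 and 2.81 times control. Without Solyc06g074820.3 the remaining 4 members summed to 88.9 ± 16.0, 165 ± 44.4 and 184 ± 24.9 CPM (SD, n = 3), which is 1.85 and 2.07 times control. The summed level of these 4 lay at 70.4 to 98.9 CPM in control libraries and at 138 to 216 CPM in treated ones. Those ranges did not overlap, but the sum is built from the CPM values already given and is no separate result.

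Composition of the sum changed less than its size. Solyc06g074820.3 supplied 71.8%, 69.1% and 63.7% of it in control libraries, 76.4%, 76.0% and 73.3% after defoliation and 76.5%, 74.0% and 78.9% under shading. Its lowest treated share was above its highest control share. The share of Solyc12g044330.2 was 14.8 ± 2.19% in control, 10.1 ± 1.08% after defoliation and 12.6 ± 2.06% under shading (SD, n = 3). Solyc03g120470.3 supplied 5.01 ± 1.38%, 5.86 ± 0.90% and 3.18 ± 0.28% (SD, n = 3). These are shares of counts and not of molecules, because lengths were not used here. The estimated division of reads between similar family members also enters them.

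Members did not vary as one block among replicates. Around their group means, the log2 CPM of Solyc06g060760.3 and Solyc06g075650.3 had a Pearson r of 0.81 over the 9 libraries, at which Solyc06g075650.3 was rank 300 of the 20479 other genes for Solyc06g060760.3, and Solyc06g060760.3 was rank 333 for Solyc06g075650.3. Among the controls both were highest in replicate 3. Solyc03g120470.3 had r of -0.14 and 0.01 with them and was highest in control replicate 1, where those 2 were lowest. Among the defoliation libraries all 5 members were highest in replicate 3. Solyc06g074820.3 had r between 0.33 and 0.60 with the other 4. Libraries share depth and composition effects across genes, so these values are descriptions.

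With the group differences kept, the gene most like each member over the 9 libraries was not another of the 5 members. Whether that gene belongs to the family could not be told from its identifier. It was Solyc11g065830.2 for Solyc06g074820.3 (Pearson r of log2 CPM 0.996), Solyc05g012100.3 for Solyc03g120470.3 (0.998) and Solyc01g008530.3 for Solyc12g044330.2 (0.988). It was Solyc08g028690.3 for Solyc06g075650.3 (0.979) and Solyc10g005960.1 for Solyc06g060760.3 (0.962). Where controls stand apart from treated libraries, that step alone raises r, and the best of so many genes is high by selection. Among the 5 members, r over the 9 libraries was highest for Solyc06g074820.3 with Solyc12g044330.2 (0.892) and nearly as high for Solyc06g075650.3 with Solyc06g060760.3 (0.889).

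**Figure D4:**
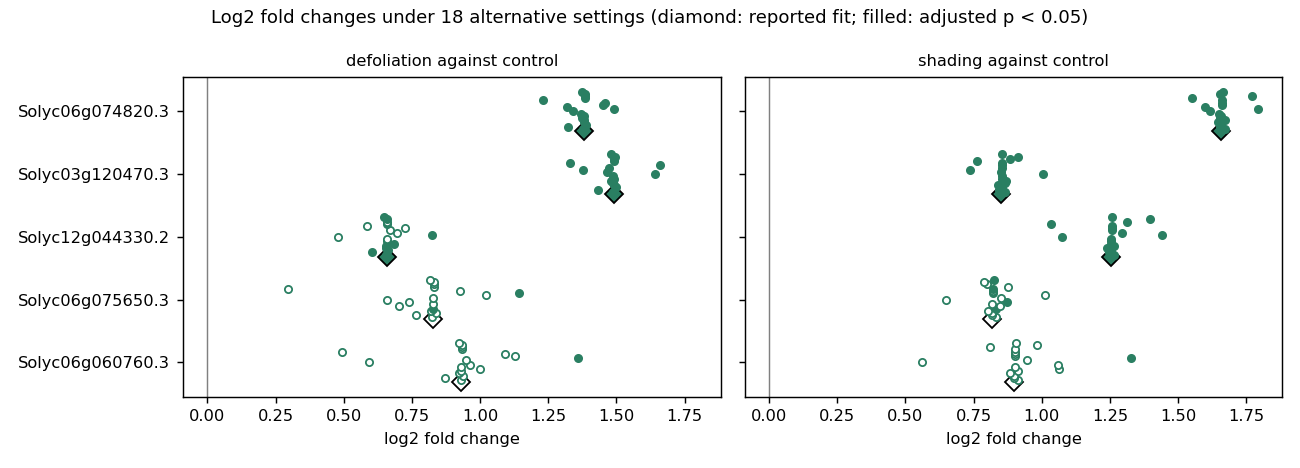
Log2 fold changes against control of the 5 TIPs in the reported fit (diamonds) and in 18 alternative settings (circles), filled where the adjusted p was below 0.05. All values lie above 0, with Solyc06g074820.3 between 1.23 and 1.49 after defoliation and between 1.55 and 1.79 under shading, filled throughout.

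Every one of the 18 alternatives kept the calls of Solyc06g074820.3 and Solyc03g120470.3 in both comparisons with control and that of Solyc12g044330.2 under shading. Their log2 fold changes ranged from 1.33 to 1.66 for Solyc03g120470.3 after defoliation, from 0.74 to 1.00 for the same gene under shading and from 1.04 to 1.44 for Solyc12g044330.2 under shading.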

How the data were processed

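Leaf messenger RNA of 9 libraries (3 groups of 3) was measured. The authors deposited RSEM expected counts per gene, given as whole numbers. Trim Galore, STAR, RSEM and DESeq2 are the tools named per the submitters' processing notes. Versions, build and annotation were not given in the sources used here. Reads that fit several genes are shared out by RSEM's estimate, so counts of similar family members are uncertain. The TruSeq RNA kit named in the labels' protocols does not mark strand. Samples were grouped by title.

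From the counts, filterByExpr kept 20480 of 23195 genes (88.3%, with 99.96% of counts). The test was edgeR 4.0.16 (quasi-likelihood, robust, that version's default method, R 4.3.3) with TMM scaling on all 9 libraries, 1 coefficient per group and no covariate. P-values were adjusted over all tested genes by the Benjamini-Hochberg method and called below 0.05. The standard error is the log2 fold change divided by the root of F, and intervals are 95% t intervals with the moderated degrees of freedom, not adjusted for the number of genes. Likeness used log2 CPM with a prior count of 2. The procedure was tested on simulated data. No 2 replicates agreed within sampling noise. The design text calls the replicates biological but does not say that each was a separate plant, so p-values measure only the spread between these samples.

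Alternatives were RLE and upper-quartile scaling, no filter and a filter of 10 CPM in 3 libraries, DESeq2 1.42.0, limma-voom (limma 3.58.1), the other quasi-likelihood method, only the compared groups, the replicate number as a block, and leaving out each library. All listed members are named, with the gene most like each. The members and lists were chosen with earlier results of these data known. The rule allowed other aquaporins and cell markers only where the reference names an identifier, and as 0 matched, none are given.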

Additional observations from a re-analysis of the deposited data

How the results depend on the processing

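The number of TIPs called was between 2 and 4 against control in every alternative and 0 in the direct comparison. Over all genes, those called higher after defoliation ran from 2917 of 11653 (filter of 10 CPM) to 4143 of 21290 with an adjusted p (DESeq2). Under shading they ran from 2470 of 20761 (without control replicate 3) to 3707 of 20843 with an adjusted p (DESeq2). Of 90 alternative values for the members after defoliation, 7 lost a call and 3 gained one, and of 90 under shading, 0 lost and 6 gained. All values against control kept their sign. Replicate numbers share no stated day or tray. Same-numbered libraries deviated together in some pairs and not in others (correlations -0.187 to 0.141). In 9 of 18 cases a library correlated best with its own number, each case being a choice among the 3 libraries of another group. These values do not decide whether the numbers mark pairs. No pairing was used because the labels state no batch. With the replicate number as a block, the defoliation value of Solyc12g044330.2 was 0.66 (adjusted p = 0.0732, edgeR) and did not pass, while the shading value of Solyc06g075650.3 was 0.87 (adjusted p = 0.0319, edgeR) and passed.

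The direct values of Solyc06g060760.3 and Solyc06g075650.3 lie near 0 and changed sign. For Solyc06g060760.3 they were 0.027 with upper-quartile scaling, 0.061 with limma-voom and 0.10 with the replicate block, with -0.23 to 0.41 when single libraries were left out. For Solyc06g075650.3 they were 0.009 with RLE scaling, 0.054 with upper-quartile scaling, 0.008 with DESeq2, 0.14 with limma-voom, 0.13 with the replicate block and 0.018 with only the treated groups, with -0.32 to 0.53 when single libraries were left out. The cause was not tested. With the replicate block 0 genes were called in the direct comparison. DESeq2 called 576 genes higher and 438 lower there, against 2 and 1 with edgeR. Genes called higher after defoliation numbered 3863 with all libraries, and 2947 to 3527 when any 1 control or defoliation library was left out. Those called lower numbered 3152, and 2077 to 2528 in the same settings. Under shading 3283 genes were called higher, and 2470 to 3032 when any 1 control or shading library was left out. Those called lower under shading numbered 2899, and 1922 to 2276. Both uncalled members had at least 80 counts in each library, and their coefficients of variation within a group reached 56.4%.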
